A study of Mus musculus with 6 samples.

Results

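Nucleotide and adenosine receptors are the cell surface proteins through which extracellular ATP, its breakdown products and UDP-sugars act on a cell. From 10 receptor genes given by symbol, 4 of the P2Y family, 3 of the P2X family and 3 adenosine receptors, 8 were found among the 19078 genes of the deposited table. *P2ry2*, *P2ry6*, *P2ry14*, *P2rx4*, *P2rx5*, *P2rx7*, *Adora2a* and *Adora2b* had a row, and *P2ry1* and *Adora1* were not analysed here. The genes were selected by family name with the authors' fold changes known, and *P2ry14* was included because of its value there. Those fold changes are not used here, so every value given is a level over both groups together and none is a difference between them.

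RNAseq covered 3 *Ms4a15* OE libraries and 3 control libraries of poly(A)-selected RNA from immortalized mouse fibroblasts (MF). The cells of both groups came from a conditional *Gpx4* line that expresses Cre-ERt2 and carries a CRISPR activation system, which recruits transcriptional activators to a gene through a guide RNA. The *Ms4a15* OE cells were a pool that received a guide for *Ms4a15*, and the control cells, labelled wild type, received empty lentivirus. No separate cultures are stated for the 3 libraries of a group, and no value of a single library was analysed.

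P2Y receptors are G protein-coupled receptors for nucleotides, which act mainly through phospholipase C and calcium release from the ER or through inhibition of adenylyl cyclase. P2X receptors are cation channels of 3 subunits that open on binding ATP and let sodium and calcium into the cell. Adenosine receptors are G protein-coupled and raise or lower cyclic AMP, and their ligand arises largely from ATP that enzymes on the cell surface have broken down.

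*P2rx4*, a calcium-permeable ATP channel found on the plasma membrane and on lysosomes, had the highest level of the 8 receptors. Its mean was 925 normalized counts over the 6 libraries, the authors' mean of counts divided by each library's size factor. The 95% counting interval ran from 900.5 to 949 normalized counts. The spread between libraries is not in any interval given here, which covers counting error only (exact Poisson). By the mean, which is not scaled for length, *P2rx4* lay above 63.9% of all genes listed. No other receptor of the 8 lay above more than 47.8%.

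*P2ry14*, the receptor for UDP-glucose and related UDP-sugars, followed with a mean of 164 normalized counts (counting interval 154 to 175). *P2ry2*, which responds to ATP and UTP and couples to phospholipase C, had a mean of 122 (113 to 131). *P2rx5*, a P2X subunit, had a mean of 91.0 (83.6 to 99.0). These 3 receptors lay above 47.8%, 46.3% and 44.8% of all genes listed, and above 22.9%, 20.6% and 18.5% of the genes with at least 10 normalized counts. The mean pools both groups, and *P2ry14* was chosen for a difference between them in the authors' comparison, so its mean and rank need not describe either group.

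*Adora2b*, the low-affinity adenosine receptor that raises cyclic AMP, had a mean of 45.7 normalized counts (40.5 to 51.4). *P2rx7*, the channel that needs high ATP and is known for inflammasome activation, had a mean of 43.5 (38.4 to 49.1). The intervals of these 2 genes overlapped, and they rested on about 276 and 263 reads over the 6 libraries.

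*P2ry6*, the UDP receptor, and *Adora2a*, the high-affinity adenosine receptor that raises cyclic AMP, were close to absent. The mean of *P2ry6* was 1.53 normalized counts (0.701 to 2.91), which is exactly that of 9 reads spread over 5 of the 6 libraries. The mean of *Adora2a* was 0.800 (0.260 to 1.87), that of 5 reads in 4 libraries. Which libraries held these reads cannot be assigned to a group from the mean. A total of 3 reads over the 6 libraries, the limit that a count of 0 allows, equals a mean of 0.497.

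With a minimum mean of 10 normalized counts, 6 of the 8 receptors were above it, or 75%, against 67.7% of all genes listed. The 2 below it were *P2ry6* and *Adora2a*. At a minimum of 100 normalized counts 3 receptors were left, *P2rx4*, *P2ry14* and *P2ry2*. That was 37.5% of the receptors, below the 54.7% of all genes at that minimum, so which share was larger depended on the minimum. The median of the 8 receptors was 68.4 normalized counts, beside 237 over all genes.

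**Figure D1:**
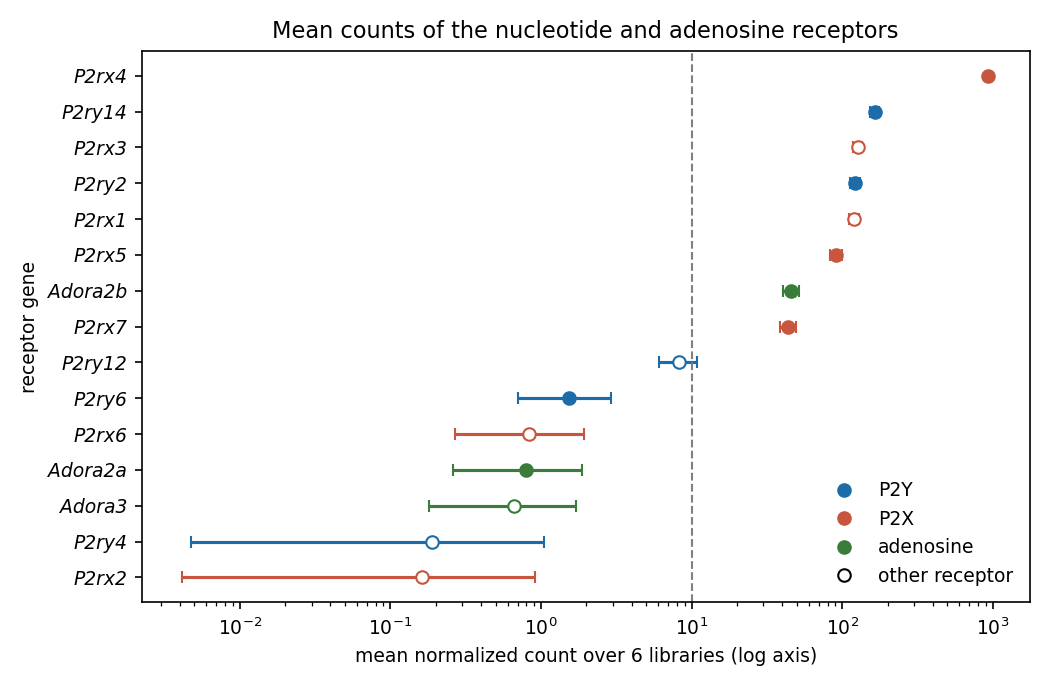
Mean normalized count over the 6 libraries (log axis) of 15 receptor genes of the 3 families; filled points are the receptors described, open points the other family members, bars are 95% counting intervals and the dashed line marks 10 normalized counts. *P2rx4* stands at 925, 5 further filled points lie between 43.5 and 164, and *P2ry6* and *Adora2a* lie at 1.53 and 0.800.

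**Figure D2:**
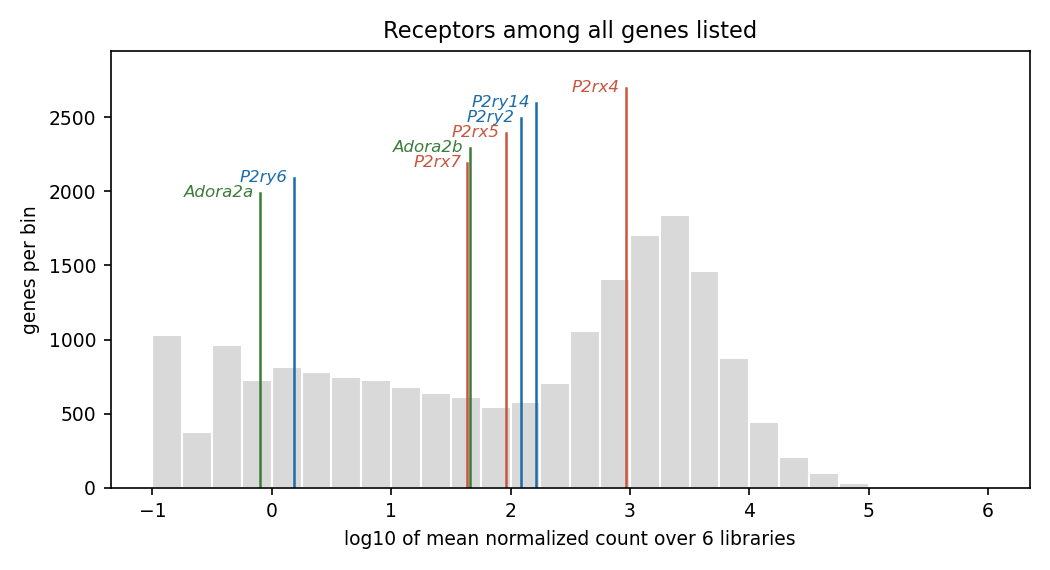
Histogram of the log10 mean normalized count over the 6 libraries for all 19078 genes, with a line at each of the 8 receptors (blue P2Y, red P2X, green adenosine; line heights carry no value). *P2rx4* alone falls within the main peak of transcribed genes, and *P2ry6* and *Adora2a* fall among genes with a few reads.

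Counts grow with transcript length, so levels of different genes were compared per kb of annotated exon (GENCODE M21, all exons of a gene merged). The authors counted reads on the UCSC knownGene annotation, so this length need not be that of the exons counted. The counting intervals do not cover such a difference. On this scale *P2rx4* had 132 normalized counts per kb, *P2rx5* 38.0, *P2ry2* 31.0, *Adora2b* 24.8, *P2ry14* 14.8 and *P2rx7* 7.29. *P2ry6* and *Adora2a* had 0.531 and 0.261 normalized counts per kb. *P2rx4* thus made up 53.0% of the summed level per kb of the 8 receptors, and *P2rx5* and *P2ry2* 15.3% and 12.5%. Among all genes with a length, *P2rx4* lay above 51.6% per kb of exon, and their median was 116 normalized counts per kb. *P2rx5*, *P2ry2*, *Adora2b*, *P2ry14* and *P2rx7* lay above 39.8%, 38.5%, 37.2%, 34.2% and 30.7% of these genes.

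In the order per kb of exon, *P2rx4* was 3.46-fold above *P2rx5* (95% counting interval 3.17 to 3.79, exact binomial). *P2rx5* was 1.23-fold above *P2ry2* (1.10 to 1.37), a direction that turned per kb of coding sequence and without scaling for length, and *P2ry2* 1.25-fold above *Adora2b* (1.09 to 1.44). Of the 7 pairs of neighbours in this order, 6 had a counting interval that excluded a ratio of 1. The exception was *P2ry6* over *Adora2a*, at 2.03-fold (0.612 to 7.72). Among the 6, *Adora2b* was 1.67-fold above *P2ry14* (1.45 to 1.91), a direction that also turned per kb of coding sequence and without scaling. Whether the closer pairs differ beyond the spread between libraries could not be tested. Between the ends of the order, *P2rx4* was 504-fold above *Adora2a* (216 to 1552).

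The places of *P2ry14*, *P2rx5* and *Adora2b* depended on what was taken as the length. The merged exons of *P2ry14* cover 11059 bp, the longest of the 8 receptors, whereas its coding sequence covers 1041 bp. Per kb of coding sequence *P2ry14* had 158 normalized counts and was second to *P2rx4* with 794, ahead of *P2ry2* with 109 and *P2rx5* with 66.7. Per kb of exon it was the fifth. *P2rx5* went from the second place per kb of exon to the fourth, and *Adora2b* from the fourth to the fifth. *P2rx4* was first and *P2rx7*, *P2ry6* and *Adora2a* were the last 3 on both scales.

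**Figure D3:**
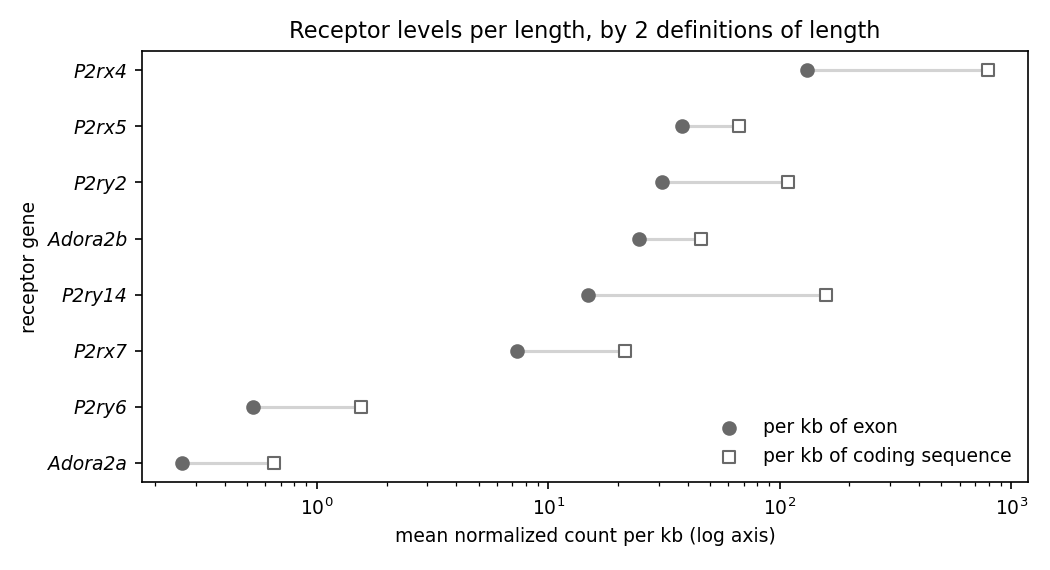
Mean normalized count per kb (log axis) of the 8 receptors, with circles per kb of merged exon and squares per kb of coding sequence. The gap is widest for *P2ry14*, at 14.8 and 158, and *P2rx4* is highest by both measures.

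Pairs of these receptors lie next to each other on the chromosome and differed in level. On chromosome 5 of GRCm38, the assembly of mm10, *P2rx7* (chr5:122643911-122691432) and *P2rx4* (chr5:122707544-122729738) are neighbours on the forward strand, 16111 bp apart. Per kb of exon *P2rx4* was 18.1-fold above *P2rx7* (counting interval 16.0 to 20.5). On the other side of *P2rx4*, 1431 bp away, lies *Camkk2*, a calcium-dependent kinase gene, with a mean of 668 normalized counts. On chromosome 7, *P2ry6* (chr7:100937630-100974649) and *P2ry2* (chr7:100996568-101012866) lie 21918 bp apart on the reverse strand. *P2ry2* was 58.4-fold above *P2ry6* per kb of exon (30.6 to 128).

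*P2ry14* (chr3:59113855-59153618, reverse strand) lies within *Med12l*, a Mediator subunit gene on the opposite strand with a mean of 121 normalized counts. No exon base of *P2ry14* is shared with an exon of *Med12l*. The strand setting of the counting is not given in the sources used here. Whether reads from introns of *Med12l* were counted for *P2ry14* was not tested. The nearest coding neighbour of *P2ry14* at lower coordinates, the orphan receptor gene *Gpr171*, had a mean of 0.163 normalized counts, that of a single read. *P2ry12*, a further receptor of this chromosome and the ADP receptor of platelets and microglia, had a mean of 8.25 (6.12 to 10.9). The mean of *P2ry14*, 164, was above those of *Gpr171* and *P2ry12*, without scaling for length. Per kb of exon *P2ry14* had 14.8 normalized counts, *P2ry12* 3.24 and *Gpr171* 0.0734.

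*Adora2b* (chr11:62248984-62266453) and *P2rx5* (chr11:73160421-73172685) are both on the forward strand of chromosome 11, and *Adora2a* (chr10:75316877-75334784) is on that of chromosome 10. The nearest coding genes of *Adora2a* and *Adora2b* at lower coordinates, *Specc1l* and *Specc1*, are paralogs of each other. Their means were 1352 and 8393 normalized counts, far above those of the receptors beside them. On its other side *Adora2b* has a closer coding neighbour, *Zswim7*, 770 bp away on the opposite strand, with a mean of 277. *Specc1* lies 25970 bp from *Adora2b*. *Adora2b* was 94.8-fold above *Adora2a* per kb of exon (40.2 to 294).

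Promoters of these receptors differ in CpG dinucleotides, which are frequent at the starts of broadly transcribed genes. Of the 8 receptors, 5 had an annotated start in the RefSeq table (GRCm38.p6), and CpG were counted in the 250 bases before it. The 3 windows below were printed to show a CpG-rich start, that of the receptor with the highest mean, and a CpG-poor start of a receptor with a mean over 100. Each is written 5′ to 3′ on the strand of its gene with CpG in capitals. They are *Adora2b* at chr11:62248734-62248983 (forward), *P2rx4* at chr5:122707294-122707543 (forward) and *P2ry14* at chr3:59131329-59131578 (reverse). The last is the one window of *P2ry14* among 4 annotated starts that overlaps no annotated exon.
Adora2b: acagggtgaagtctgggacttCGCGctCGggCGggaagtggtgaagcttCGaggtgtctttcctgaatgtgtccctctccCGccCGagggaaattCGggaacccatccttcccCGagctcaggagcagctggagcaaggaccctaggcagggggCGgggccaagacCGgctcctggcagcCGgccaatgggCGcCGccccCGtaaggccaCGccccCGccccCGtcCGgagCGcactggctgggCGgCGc
P2rx4: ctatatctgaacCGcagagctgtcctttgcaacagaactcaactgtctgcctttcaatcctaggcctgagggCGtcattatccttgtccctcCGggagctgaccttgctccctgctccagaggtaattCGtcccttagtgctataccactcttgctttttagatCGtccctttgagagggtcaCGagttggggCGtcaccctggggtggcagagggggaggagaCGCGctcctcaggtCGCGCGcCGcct
P2ry14: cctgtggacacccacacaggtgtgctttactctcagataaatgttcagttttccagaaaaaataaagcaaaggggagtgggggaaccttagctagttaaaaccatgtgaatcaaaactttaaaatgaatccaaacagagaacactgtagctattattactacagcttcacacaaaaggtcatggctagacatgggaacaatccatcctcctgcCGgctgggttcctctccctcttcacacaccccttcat

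The window of *Adora2b* held 22 CpG and that of *P2rx4* 13. The printed window of *P2ry14* held 1, and the richest of its 4 windows held 4. *P2ry2* held up to 26 CpG in 2 windows and *P2rx7* up to 6 in 2. Over the 7355 genes with a start and at least 100 normalized counts, the median was 18 CpG, with quartiles of 12 and 25. *P2ry2* was above that range in its window with 26 CpG, which overlaps an annotated exon. Its other window overlaps none and was within the range at 21 CpG. *P2rx4* was within the range and *P2ry14* below it. Over the 1048 genes with a start and a mean of 10 to under 100, the median was 10 CpG, with quartiles of 4 and 19. *Adora2b* and *P2rx7* are of this class, *Adora2b* above its quartiles and *P2rx7* within them. Genes with a mean under 10 had a median of 6 CpG. The number of CpG did not order the receptors by level, since *Adora2b* held more CpG than *P2rx4* at a lower mean.

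The other receptors of the 3 families, 9 further genes, had 7 rows. *P2rx3*, known from sensory neurons, had a mean of 127 normalized counts (118 to 136), and *P2rx1*, known from platelets and smooth muscle, had 120.4 (112 to 129). Per kb of exon they had 45.5 and 45.8 normalized counts, above *P2rx5* and below *P2rx4*. *P2rx6*, *Adora3*, *P2ry4* and *P2rx2* had means of 0.832, 0.664, 0.188 and 0.163, which are those of 5, 4, 1 and 1 reads. *P2ry10* and *P2ry13* were not analysed here. Within their families, *P2rx4* held 49.0% of the summed P2X level per kb of exon, *P2ry2* 62.4% and *P2ry14* 29.9% of the P2Y level, and *Adora2b* 98.3% of the adenosine receptor level. Per kb of coding sequence the P2Y order turned, with *P2ry14* at 57.1% and *P2ry2* at 39.4%, whereas *P2rx4* at 72.9% and *Adora2b* at 97.2% still led their families.

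The ligands of these receptors leave cells through channels and vesicles, and of 13 genes of ATP and nucleotide-sugar release 11 had a row. A mean of at least 10 was reached by 8 of them (72.7%), beside 67.7% of all genes listed. *Gja1*, which encodes connexin 43, had the highest mean at 9489 normalized counts. The volume-regulated anion channel genes *Lrrc8c* and *Lrrc8a* had 1827 and 857, and the prostaglandin transporter and channel gene *Slco2a1* had 1111. *Panx1*, the pannexin known for ATP release, was at 1.51 normalized counts, that of 9 reads. *Slc17a9*, the vesicular nucleotide transporter, was at 4.65. *Slc35d2*, which carries UDP-sugars into the Golgi, was at 261.

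Extracellular nucleotides are broken down stepwise to adenosine. Of 10 genes listed for such enzymes 5 had a mean of at least 10 (50%), beside 67.7% of all genes listed. *Nt5e*, or CD73, which turns AMP into adenosine, had the highest mean at 548 normalized counts (63.7 per kb of exon). *Enpp2* and *Enpp3* had 168 and 85.9. Whether the products of the listed genes act on nucleotides in these cells was not tested. The ATP-hydrolysing ectonucleotidases *Entpd1* (CD39), *Entpd2*, *Entpd3* and *Entpd8* had means of 0.490, 1.94, 0.554 and 0.339, those of 3, 11, 3 and 2 reads. *Enpp1*, which turns ATP into AMP and pyrophosphate, had a mean of 25.8.

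Adenosine is taken up and recycled within the cell, and of 11 such genes 10 had a row. A mean of at least 10 was found for 8 of them (80%), beside 67.7% of all genes listed. *Ahcy*, which releases adenosine from S-adenosylhomocysteine, had the highest mean at 9202 normalized counts. *Slc29a1*, the main equilibrative nucleoside transporter, had 8058 and *Pnp*, purine nucleoside phosphorylase, 4782. *Adk* and *Ada*, which phosphorylate and deaminate adenosine, had 2634 and 943. The median of this list, 301 normalized counts per kb of exon, was above that of the 8 receptors at 19.8 and of all genes at 116.

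The transducers of the receptors were measured in the same means. Of 12 G protein alpha subunit genes, 8 had a mean of at least 10 (66.7%), about the 67.7% of all genes listed. The highest were *Gnas*, which couples adenosine A2 receptors to adenylyl cyclase, at 35475 normalized counts, and the inhibitory subunits *Gnai2* and *Gnai3* at 14257 and 10913. The phospholipase C-coupling subunits *Gna11* and *Gnaq* had 3293 and 2506. Of 9 adenylyl cyclases, 7 had a row, and *Adcy6* was the highest at 4822, followed by *Adcy7* at 1701 and *Adcy3* at 170. Per kb of exon, *Gnas*, *Gnai2* and *Gnai3* had 3171, 3773 and 3346 normalized counts, beside 132 for *P2rx4*.

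**Figure D4:**
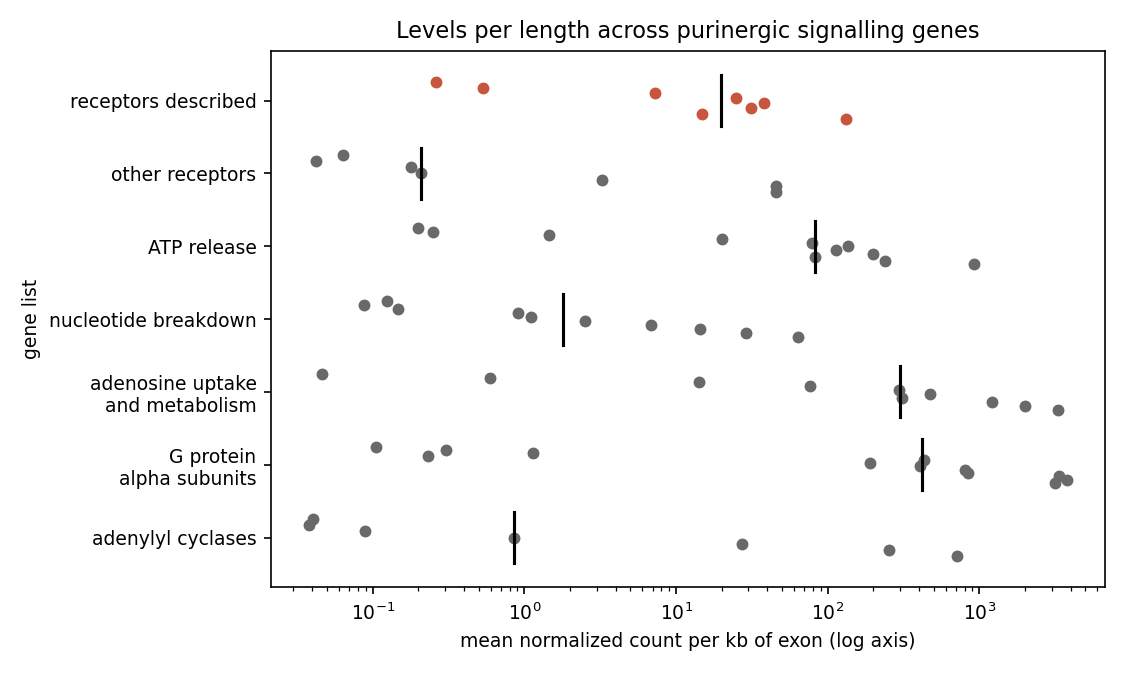
Mean normalized count per kb of merged exon (log axis) for the 8 receptors (red) and for the lists of other receptors, release, breakdown, uptake and transduction genes; each point is 1 gene with a row and the vertical bar is the median of its list. The receptor median is 19.8. The medians of the release, uptake and G protein lists are higher, at 82.0, 301 and 417. Those of the breakdown, adenylyl cyclase and other receptor lists are lower, at 1.81, 0.858 and 0.208.

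Levels of marker genes were taken from the same means to check the cell type. Of 12 fibroblast markers 11 had a row, all but *Fap*. Of these 11, 10 had a mean of at least 10 (90.9%, beside 67.7% of all genes listed). The highest of these were *Col1a2*, *Vim* and *Fn1* at 135155, 115135 and 114243 normalized counts. *Lum* and *Dcn* were at 0.675 and 12.1. *P2ry14*, *P2rx7*, *P2rx4* and *P2ry6* are also known from myeloid cells. Of 9 myeloid markers 7 had a row, and *Adgre1* and *Tyrobp* had none. A mean of at least 10 was reached by 5 of the 7 (71.4%), beside 67.7% of all genes listed. *Lyz2*, *Cd14* and *Cd68* were at 534, 374 and 164, and *Csf1r*, *Ptprc*, *Itgam* and *Aif1* were at 13.2, 11.1, 5.79 and 0.163. The part of other cells in the receptor levels was not tested. The neural list held 5 markers, of which *Rbfox3* and *Snap25* had no row. Of 8 epithelial, 5 endothelial and 3 neural markers with a row, 2, 2 and 1 had a mean of at least 10. These shares were 25%, 40% and 33.3%. The highest were *Krt14* at 170.4, *Cdh5* at 107 and *Mbp* at 44.0. Next came *Krt8* and *Krt18* at 10.9 and 1.92, *Pecam1* and *Tek* at 15.9 and 1.38, and *Syt1* at 3.43. The lowest of these lists were *Epcam*, *Emcn* and *Gfap* at 0.176, 0.301 and 1.17.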

How the data were processed

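The authors aligned reads with STAR to mm10 with the UCSC knownGene annotation, HTSeq-count assigned them to genes, and DESeq2 gave the authors' comparison of the groups. The submitters' processing notes also name TopHat, Cufflinks and Cuffdiff. The labels give a strand-specific kit and the methods another, and the strand setting of the counting is not given in the sources used here. The authors' deposited table holds 1 signal column, the mean of counts divided by size factors over all 6 libraries, which was used. Its other columns hold the authors' log2 fold changes, standard errors, p-values and direction, and were not used. With no value per library, no test between *Ms4a15* OE and control, SD or per-library depth was computed, and no count model was fitted.

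Genes with 1 read in a single library (1267 genes) took 6 values of the mean, which gave the 6 size factors, from 0.887 to 1.14, without saying which library had which. All means sum to 40991755 normalized counts, about the reads on genes in a library with a size factor of 1. Reads behind a mean were taken with the mean size factor of 1.01, and up to 12 reads were resolved into whole reads, within a tolerance of 5e-09 per read. The 95% intervals cover counting error only. Lengths and positions came from GENCODE M21 for 16135 genes (84.6%), 1484 of them matched by an older symbol in RefSeq. The members and lists were chosen with earlier results of these data known. Named were all receptors of the 3 families with a row, the 3 highest genes of each list, further list members, and neighbours on the chromosome. Of these, the further genes with a mean under 10 and *Med12l* were chosen after their values were seen. Alternatives were other minimum means, size factors and lengths. The recovery of reads was tested on simulated data. Python 3.11.15, numpy 2.4.6, pandas 2.3.3, scipy 1.17.1 and matplotlib 3.10.9 were used.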

Additional observations from a re-analysis of the deposited data

How the results depend on the processing

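The number of receptors above the minimum mean was 6 at minimum means of 5 and 10 normalized counts and 3 at 100, where *P2rx5*, *Adora2b* and *P2rx7* fell below it. The shares of the 8 receptors were 75%, 75% and 37.5%, beside 72.3%, 67.7% and 54.7% of all genes. For the 50 other pathway genes with a row the number was 33 at 10, 34 at 5 and 28 at 100. These were 66%, 68% and 56%, near the shares of all genes. By coding length, or with no scaling for length, 5 of the 8 receptors held the same rank as per kb of exon, and *P2ry14* moved from the fifth to the second, *P2rx5* from the second to the fourth and *Adora2b* from the fourth to the fifth in both. When genes under 10 normalized counts were left out, the percentile of *P2rx4* was 46.6% in place of 63.9%, and those of *P2ry14*, *P2ry2*, *P2rx5*, *Adora2b* and *P2rx7* were 22.9%, 20.6%, 18.5%, 13.3% and 12.9% in place of 47.8%, 46.3%, 44.8%, 41.3% and 41.0%. With the lowest and the highest size factor the reads behind *P2rx4* were 4918 and 6306, beside 5580. The identity of receptor proteins was planned and not run, since no protein table was used here. No paired analysis was possible because the mean pools all 6 libraries, and for the same reason leaving out each replicate, other normalizations and the comparison of the groups were not run. Depth limits *P2ry6* and *Adora2a*, at 9 and 5 reads, whose order could not be told.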
